A study of Mus musculus with 6 samples.

Results

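The genes described here are 23 genes chosen by symbol for vesicle traffic and the secretory pathway, out of the 1018 genes listed in the deposited expression table, and are called the traffic genes. Of these, 22 encode proteins of the pathway, and Vps72 was taken by its name alone. They were chosen as listed genes of the families of RAB and ARF GTPases, COPI and COPII coat proteins, VPS proteins, sorting nexins, adaptor complexes, clathrin chains, TRAPP, COG and exocyst tethers, golgins, syntaxins, VAMPs, NSF and its cofactors, p24 proteins and LMAN lectins, with Stx11 left out. The same pattern fits 299 protein-coding genes of the GENCODE M21 annotation, and those outside the table were not analysed here. The samples were CD8+ T cells that bound the MHC tetramer for M45, an immunodominant peptide of murine cytomegalovirus (MCMV), sorted in equal numbers from spleens 7 days after infection. JHT mice, which carry a germline deletion of the JH segments of the antibody heavy chain gene and form no B cells, gave 3 libraries, and wild-type (WT) littermates gave 3 libraries. All mice were adults of both sexes on the C57BL/6J background, and both groups were infected. The 3 libraries of each group came from 3 mice, so each library is taken as 1 mouse.

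Proteins destined for the cell surface, for lysosome-related granules or for secretion enter the endoplasmic reticulum (ER), leave it in COPII-coated vesicles, and pass through the Golgi apparatus, from which COPI-coated vesicles carry escaped ER residents and recycling receptors back. RAB and ARF GTPases mark each membrane and recruit coats and tethers, tethers hold an arriving vesicle, and SNARE proteins fuse it. Activated CD8+ T cells use this route to supply cytokines, surface receptors and the contents of cytotoxic granules, and the endosomal branch feeds the granules themselves.

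The values in the table are scaled for gene length and for library, so levels can be set beside each other between genes. The study called genes different at an adjusted p under 0.05 and a log2 fold change beyond 1, and reported 1018 such genes. Every listed gene was selected for a difference between the groups, and for 100% of them the JHT and WT values do not overlap. For this reason a p-value computed on the table is smaller than it would be in an unselected set, and the counts below are read against the listed genes. The name of the cell type could be checked only in part. Of 16 genes of CD8 T cell identity only Lck, a kinase of T cell receptor signaling, was listed (554, 660 and 768 in JHT libraries, against 184, 381 and 299 in WT libraries). Of 52 markers of B cells, myeloid cells, NK or CD4 T cells and erythroid cells or platelets in 4 lists, 1 was listed, the red cell enzyme gene Bpgm (13.9, 13.1 and 10.2 in JHT libraries, against 1.65, 6.14 and 4.45 in WT libraries). The others, the deleted segments included, were not analysed here, and the part of other cells in the results was not tested.

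All 23 traffic genes were higher in JHT than in WT libraries and passed the test, as did 96.6% of all listed genes. The other 35 listed genes were lower in JHT and passed too. The test was limma on log2(value + 1), with a Benjamini-Hochberg adjusted p under 0.05 over the 1018 genes. A log2 change above 1 as well was reached by 22 of the 23, and by 92.2% of all listed genes. The exception was Copg1, which had 0.97 with 1 added before the logarithm and 1.09 with 0.1 added. Since the study itself selected genes beyond a log2 fold change of 1, this count was largely fixed by the selection. The JHT and WT values did not overlap for any of the 23. Their median log2 change was 1.47, and that of all listed genes was also 1.47, with 12 of the 23 above it and 11 below. The middle of the distribution ran from 1.29 to 1.78 between quartiles for the traffic genes and from 1.20 to 1.73 for all listed genes. As ratios of group means, the changes spanned 2.15-fold to 11.1-fold with a median of 2.78-fold. Of the 23, 18 lay between 2-fold and 4-fold, and 5 were higher by 4-fold or more (Exoc7, Arfgap2, Cltb, Rab1b and Lman1). These directions, and those given for single genes, are on the deposited scale, and 12 of the 23 were lower in JHT when the libraries were brought to a common median. In bulk samples of this kind a change in the RNA of each cell and a change in the make-up of the sorted cells cannot be told apart.

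**Figure D1:**
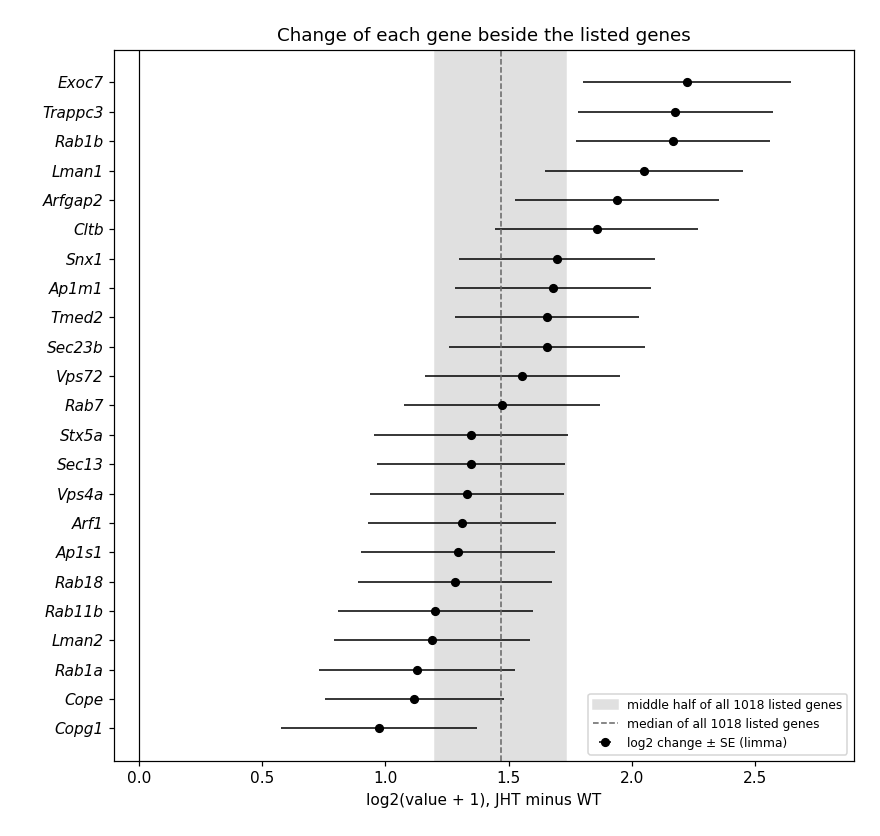
Change of each of the 23 traffic genes, as the JHT mean minus the WT mean of log2(value + 1) on the horizontal axis; points are limma estimates and bars their standard errors (3 JHT and 3 WT libraries). The dashed line is the median of all 1018 listed genes (1.47) and the grey band runs between their quartiles (1.20 to 1.73); Exoc7, Trappc3, Rab1b, Lman1, Arfgap2 and Cltb lie to the right of the band, Copg1, Cope, Rab1a and Lman2 to its left, and Rab11b at its left edge.

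The promoters of the genes were searched for 8 short motifs, since the rule of selection used no sequence. A promoter here is the 300 bases from 250 before to 50 after a transcription start in the RefSeq table of GRCm38.p6, which holds 18 of the 23 genes. The 5 without an entry were Ap1m1, Tmed2, Lman1, Rab18 and Vps72. A gene was counted for a motif if the promoter of any of its RefSeq starts held it, and the number of starts per gene was not taken into account. The Golgi apparatus stress response element (ACGTGGC, read on both strands), through which the factor TFE3 raises Golgi genes when the Golgi is under load, was in 4 of the 18 (22.2%). It was in 41 of 776 other listed genes (5.28%) and in 798 of 27025 genes of the whole table (2.95%). Some motifs given below also stood in a larger share of these genes than of other listed ones, and no share was tested. The windows of the Golgi element were picked after the shares were seen. They are shown with the element in capitals and each sequence written 5′ to 3′ on the strand of its gene.
Arf1: ggcaggcgctgACGTGGCtgccgtcagcg
Copg1: tgctcagggcgACGTGGCgggcgggagta
Sec13: cgttttgagctGCCACGTccgaggccgtg
Stx5a: gtggcgcagcaGCCACGTcaccgagttag
Stx5a, other copy: acgtctaggtgACGTGGCgg
The Arf1 window is at chr11:59228227-59228255 on the minus strand, before 1 of the RefSeq starts of the gene and after another. The Copg1 window is at chr6:87887932-87887960 on the plus strand, just after the start. In Sec13, at chr6:113740667-113740695 on the minus strand, the element spans the start and reads as its reverse complement. In Stx5a, on the plus strand, a reverse complement lies at chr19:8741421-8741449 and a second copy at chr19:8741454-8741473, both after the start. The changes of these 4 genes, 0.97 to 1.35 on the log2 scale, were all below the median of the listed genes.

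The other motifs were in 0 to 12 of the 18 genes. The core of the unfolded protein response element (TGACGTGG), which overlaps the Golgi element, was in Arf1 and Stx5a (11.1%, against 1.68% of other listed genes and 0.71% of all genes). The cAMP response element (TGACGTCA) was in Cltb and Cope (11.1%, against 3.99% of other listed genes and 2.03% of all genes). The E-box core CACGTG was in 0 of 18, against 14.4% of other listed genes and 8.09% of all genes. The CCAAT box was in 10 (55.6%, against 46.4% of other listed genes and 41.1% of all genes) and the GC box GGGCGG in 12 (66.7%, against 68.9% and 38.2%). The NRF1 core GCATGCGC was in Rab1a alone (5.56%, against 6.83% and 3.05%), and the ETS site CCGGAAGT was in Sec13 and Trappc3 (11.1%, against 13.7% and 4.31%). A match is a string of letters in these windows, and binding was not measured.

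At the exit of the ER, both listed genes of the COPII coat rose in JHT. Sec13 encodes a protein of the outer COPII cage that also sits in the nuclear pore, and it was among the most abundant traffic genes. Its values were 236, 236 and 226 in JHT libraries, against 54.0, 109 and 127 in WT libraries. The JHT libraries were nearly level (232 ± 5.51, SD, n = 3) and the WT libraries were not (96.6 ± 37.9, SD, n = 3), with WT-1 lowest. The log2 change of Sec13 was 1.35 ± 0.38 (SE, adjusted p = 0.00070, limma). Sec23b, an inner coat protein that makes the GTPase SAR1 hydrolyse GTP, had 13.2, 15.1 and 10.1 in JHT libraries, against 5.45, 2.16 and 2.99 in WT libraries. Here WT-1 was the highest WT library, unlike in Sec13, and the change was 1.66 ± 0.40 (adjusted p = 9.67e-05, limma). The COPII list holds 21 genes, of which these 2 were in the table, and of 11 genes of the ER translocon and signal peptidase 0 were.

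The cargo receptors that load these vesicles were higher as well. Tmed2 is a p24 protein that cycles between ER and Golgi as a receptor for cargo with lipid anchors. Its values were 248, 329 and 518 in JHT libraries, against 65.2, 150 and 135 in WT libraries, a change of 1.66 ± 0.37 (adjusted p = 3.96e-05, limma). JHT-3 stood well above the other JHT libraries, and every JHT value was above every WT value. Of the 75-base stretches in Tmed2 exons, 20.9% also occur in the processed pseudogenes Gm10698 or Gm7318, so its reads could be split between copies. Gm10698 is itself in the table, with values of 12.0, 16.0 and 20.8 in JHT libraries, against 1.38, 1.27 and 4.93 in WT libraries, far below Tmed2.

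Lman1 and Lman2 encode mannose-binding lectins that bind glycoproteins in the early secretory pathway, Lman1 as the receptor ERGIC-53 and Lman2 as VIP36. Lman1 had 11.9, 14.3 and 10.9 in JHT libraries, against 2.45, 1.19 and 3.38 in WT libraries, and was 5.28-fold higher (log2 change 2.05 ± 0.40, adjusted p = 3.20e-06, limma). Its lowest JHT value was 3.22 times its highest WT value, a wide gap among the traffic genes. Lman2 was several times more abundant and changed less, with 74.4, 98.1 and 78.0 in JHT libraries, against 22.9, 46.3 and 43.0 in WT libraries (2.23-fold, log2 change 1.19 ± 0.40, adjusted p = 0.0034, limma). In this list of 25 genes Ergic3 and Surf4, both encoding cargo receptors of the early secretory pathway, were listed and rose too. Ergic3 had 51.5, 66.7 and 70.4 in JHT libraries, against 10.3, 31.5 and 20.3 in WT libraries, and Surf4 averaged 47.4 ± 8.24 in JHT and 18.5 ± 3.98 in WT libraries (SD, n = 3 each).

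Of the 9 genes of the COPI coat, which returns material from the Golgi to the ER, Cope and Copg1 were listed and rose on the deposited scale, although both were lower in JHT under each rescaling of the libraries. They had some of the smallest changes of the 23. Cope, the epsilon subunit, was the most abundant traffic gene, with 334, 434 and 518 in JHT libraries, against 137, 234 and 227 in WT libraries (2.15-fold, log2 change 1.12 ± 0.36, adjusted p = 0.00275, limma). Copg1, the gamma subunit, had 9.28, 11.2 and 12.7 in JHT libraries, against 4.31, 6.27 and 4.88 in WT libraries. Its change of 0.97 ± 0.40 was the smallest of the 23 (2.15-fold, adjusted p = 0.0145, limma), and without JHT-3 it no longer passed (adjusted p = 0.056). The JHT libraries kept the same order in Cope and Copg1, with JHT-3 highest and JHT-1 lowest. This was also their order over all listed genes, with median log2 deviations from the group mean of -0.16, -0.038 and 0.23.

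Arf1 is the GTPase that brings COPI and the AP-1 adaptor to Golgi membranes, and Arfgap2 switches it off by stimulating GTP hydrolysis on the coat. Arf1 had 182, 221 and 322 in JHT libraries, against 55.9, 128 and 116 in WT libraries (2.41-fold, log2 change 1.31 ± 0.38, adjusted p = 0.000934, limma). Arfgap2 was much less abundant and more uneven, with 11.3, 3.64 and 11.5 in JHT libraries, against 0.97, 0.82 and 2.52 in WT libraries. JHT-2 lay close to WT-3 for this gene, at 1.44 times its value, so the 6.13-fold ratio of means (log2 change 1.94 ± 0.41, adjusted p = 1.52e-05, limma) rests mostly on JHT-1 and JHT-3. Arfgap2 shares 10.3% of its 75-base stretches with the pseudogene Gm15519 and overlaps exons of 1110051M20Rik on the other strand, which these libraries do not separate. Of 17 genes in the ARF list these 2 were in the table.

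**Figure D2:**
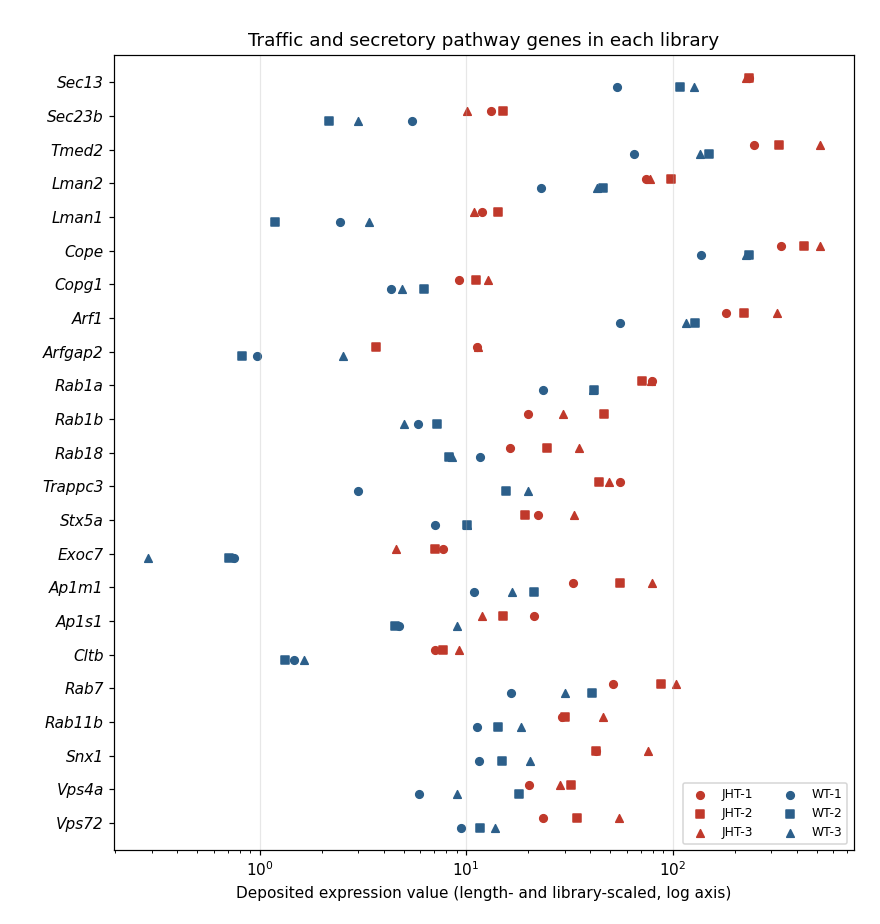
Deposited expression value (scaled for gene length and library, log axis) of each of the 23 traffic genes in the 3 JHT libraries (red) and the 3 WT libraries (blue); marker shapes give the library number. In every gene the red points lie to the right of the blue ones; Exoc7, Cltb and Lman1 show the widest gaps and Vps4a the narrowest, where the lowest JHT value is 1.12 times the highest WT value.

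The RAB GTPases of the early secretory pathway differed in the size of their change. Rab1a and Rab1b, which steer ER-derived vesicles to the Golgi and have closely related proteins, share no 75-base stretch of their transcripts. Rab1b had 20.01, 46.5 and 29.4 in JHT libraries, against 5.82, 7.22 and 4.99 in WT libraries, and its change of 2.17 ± 0.39 had the smallest adjusted p of the 23 (5.32-fold, adjusted p = 5.88e-07, limma). Rab1a was the more abundant of the pair and rose less, with 79.3, 71.3 and 78.4 in JHT libraries, against 23.5, 41.9 and 41.0 in WT libraries (2.15-fold, log2 change 1.13 ± 0.40, adjusted p = 0.00519, limma). The JHT libraries were even for Rab1a (76.3 ± 4.35, SD, n = 3) and spread for Rab1b (32.0 ± 13.4), where JHT-2 was highest. Rab18, a GTPase of the ER and of lipid droplets, averaged 25.3 ± 9.44 in JHT and 9.47 ± 1.88 in WT libraries (SD, n = 3 each), a log2 change of 1.28 ± 0.39 (adjusted p = 0.00163, limma). Its exons overlap those of another annotated gene on the same strand, AC131796.2. The list of RAB GTPases holds 59 genes, 5 of them in the table, and none of 24 RAB effectors and regulators was in it.

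Trappc3 is a core subunit of TRAPP, the tether and activator complex that loads Rab1 with GTP. It had 55.8, 44.0 and 49.4 in JHT libraries, against 3.01, 15.5 and 20.01 in WT libraries, and its log2 change was 2.18 ± 0.40 (3.87-fold, adjusted p = 6.16e-07, limma). The JHT libraries differed little from each other (49.7 ± 5.89, SD, n = 3), but WT-1 was far below WT-2 and WT-3. Without WT-1 the change was 1.44 and the ratio 2.80-fold, so the size of the change depended on this library. Stx5a, the syntaxin that fuses ER-derived vesicles with the cis-Golgi, had 22.4, 19.3 and 33.5 in JHT libraries, against 7.11, 10.1 and 10.1 in WT libraries (2.76-fold, log2 change 1.35 ± 0.39, adjusted p = 0.000987, limma). It was the only one of the chosen genes among 50 SNAREs and their regulators, beside 3 that the symbol rule did not take.

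Exoc7 encodes EXO70, the exocyst subunit that binds phosphoinositides of the plasma membrane and holds secretory vesicles there before fusion. Its gene lies at chr11:116288001-116307233 (GRCm38, minus strand) and overlaps exons of Gm26730 on the other strand. It had 7.70, 7.09 and 4.59 in JHT libraries, against 0.76, 0.71 and 0.29 in WT libraries. This was the largest fold and the widest gap between groups among the 23, an 11.1-fold ratio of means with the lowest JHT value 6.08 times the highest WT value. The log2 change, 2.22 ± 0.42 (adjusted p = 1.72e-06, limma), understates a ratio between such low values because 1 was added before taking the logarithm, and with 0.1 added it was 3.31. Since all WT values were below the filter of 1 in at least 3 libraries, Exoc7 entered the test through its JHT values alone. The WT values rest on 54, 58 and 25 recovered reads, and the JHT values on 612, 727 and 361.

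Other listed tethers and SNARE genes were also higher in JHT on the deposited scale, as were 96.6% of all listed genes. Under each rescaling of the libraries Golt1b and Bnip1 were lower in JHT, while Gorasp2, Snap23 and Stxbp2 stayed higher. Gorasp2, which encodes a Golgi stacking protein, averaged 28.1 ± 10.5 in JHT and 9.73 ± 4.49 in WT libraries, and Golt1b, a gene of ER to Golgi transport, averaged 9.98 ± 2.05 in JHT and 4.19 ± 1.85 in WT libraries. With Trappc3 and Exoc7 they were the 4 listed of 55 tethers and golgins. Snap23, a plasma membrane SNARE, averaged 20.9 ± 8.83 in JHT and 5.92 ± 2.81 in WT libraries, and Bnip1, a SNARE of retrograde transport to the ER, averaged 18.0 ± 4.75 in JHT and 8.32 ± 0.71 in WT libraries (SD, n = 3 each). Stxbp2, the MUNC18-2 protein that cytotoxic lymphocytes need to release their granules, had one of the larger changes outside the chosen genes (5.28-fold, log2 change 2.11 ± 0.40, adjusted p = 1.51e-06, limma).

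Beyond the Golgi, 3 genes of clathrin-coated carriers rose. AP-1 is the adaptor that sorts cargo between the trans-Golgi network and endosomes, with Ap1m1 as its medium and Ap1s1 as its small subunit. Ap1m1 had 32.9, 55.9 and 79.2 in JHT libraries, against 10.9, 21.4 and 16.6 in WT libraries (3.43-fold, log2 change 1.68 ± 0.40, adjusted p = 7.79e-05, limma). Ap1s1 had 21.3, 15.1 and 11.9 in JHT libraries, against 4.74, 4.50 and 9.0 in WT libraries (2.65-fold, log2 change 1.29 ± 0.39, adjusted p = 0.0015, limma). The JHT libraries stood in opposite orders for these subunits of 1 complex, with JHT-3 highest for Ap1m1 and lowest for Ap1s1. Cltb, the clathrin light chain b, had 7.04, 7.73 and 9.26 in JHT libraries, against 1.47, 1.33 and 1.63 in WT libraries. Both groups were tight for Cltb, and its lowest JHT value was 4.31 times its highest WT value (5.43-fold, log2 change 1.86 ± 0.41, adjusted p = 2.99e-05, limma). The list of adaptors and clathrin holds 37 genes, with these 3 in the table.

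The endosomal genes Rab7, Rab11b, Snx1 and Vps4a were higher in JHT by 2.40-fold to 3.43-fold. Rab7 marks late endosomes and lysosomes and links them to motor proteins. It had 51.6, 88.1 and 104 in JHT libraries, against 16.5, 40.9 and 30.3 in WT libraries, so that JHT-1 was 1.26 times WT-2 while the group means differed 2.78-fold (log2 change 1.47 ± 0.40, adjusted p = 0.000401, limma). Rab7 shares 8.95% of its 75-base stretches with the pseudogene Rab7-ps1. Snx1, a sorting nexin that bends endosome membranes into tubules for return to the Golgi, had 42.5, 42.4 and 76.0 in JHT libraries, against 11.6, 14.9 and 20.4 in WT libraries (3.43-fold, log2 change 1.70 ± 0.40, adjusted p = 6.83e-05, limma). JHT-3 was the highest library for both. Rab11b, a GTPase of recycling endosomes, averaged 35.1 ± 9.41 in JHT and 14.6 ± 3.54 in WT libraries (SD, n = 3 each; log2 change 1.20 ± 0.40, adjusted p = 0.00308, limma). Of its 75-base stretches 8.08% also occur in 8 other genes, so reads could be split, and of these Slc3a2 is in the table, with 12.5, 13.1 and 18.4 in JHT libraries, against 2.10, 5.49 and 5.93 in WT libraries.

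Vps4a encodes an ATPase that takes apart ESCRT-III filaments after they have cut a membrane neck, in endosomes and at the plasma membrane. It had 20.3, 32.4 and 28.6 in JHT libraries, against 5.88, 18.0 and 9.07 in WT libraries. JHT-1 and WT-2 came close to each other, the narrowest gap of the 23, although the means differed 2.46-fold (log2 change 1.33 ± 0.39, adjusted p = 0.00113, limma). Vps72 fits the symbol rule by name alone, since its mouse and human product is a histone H2A.Z chaperone of chromatin remodelling complexes and not a traffic protein. It had 23.6, 34.5 and 55.2 in JHT libraries, against 9.40, 11.7 and 13.7 in WT libraries (3.26-fold, log2 change 1.55 ± 0.40, adjusted p = 0.000200, limma). JHT-3 was the highest JHT library for Vps72 and WT-1 the lowest WT library, and the groups did not overlap. Of 41 genes in the VPS list these 2 were in the table, and of 30 sorting nexins 1 was. Among the genes of the endosome and others named above, exons overlap another gene on the other strand in Vps4a (Pdf), Copg1 (Gm26636), Rab11b (Gm17251) and Rab7 (Gm5577), and reads from such pairs cannot be told apart.

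Counts of how many genes of a list are in the table have no share of all expressed genes beside them, since that share is not known here. Further genes of the pathway that the symbol rule did not take were counted from 14 lists of 404 traffic genes, of which 36 were in the table. Besides the 23 these were 13 genes, all higher in JHT and past the test on the deposited scale, as were 96.6% of all listed genes, and 7 of them were lower under each of the rescalings. Their ratios were 2.16-fold to 6.40-fold, and their median log2 change was 1.32, against 1.47 for all listed genes. They include 4 of 9 genes of the YIP1 family of Golgi membrane proteins. Yipf1 averaged 109 ± 11.0 in JHT and 48.8 ± 22.4 in WT libraries, and Yif1a averaged 104 ± 21.8 in JHT and 47.0 ± 13.1 in WT libraries (SD, n = 3 each). Yipf2 had the largest ratio of the 13 at low values, and Yipf3 was 2.21-fold higher. Of 16 genes of the vacuolar proton ATPase, which acidifies Golgi, endosomes and lysosomes, 2 were listed. Atp6ap1, an accessory subunit, averaged 48.4 ± 16.6 in JHT and 14.5 ± 6.12 in WT libraries, and Atp6v0a2, a membrane subunit found in the Golgi, averaged 7.48 ± 1.54 in JHT and 3.05 ± 0.81 in WT libraries (SD, n = 3 each).

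Ratios of 2 genes within a library do not depend on how libraries were scaled. Ratios were formed for 6 pairs of related traffic genes, chosen after their values were seen, and are given as a description with no test. Rab1b stood at 25.2%, 65.2% and 37.5% of Rab1a in JHT libraries, against 24.8%, 17.3% and 12.2% in WT libraries. Lman1 stood at 16.0%, 14.5% and 14.0% of Lman2 in JHT libraries, against 10.7%, 2.58% and 7.85% in WT libraries. In both pairs the groups did not overlap, though JHT-1 and WT-1 nearly met for Rab1b over Rab1a. Among all 253 pairs of the 23 genes, 50 (19.8%) had ratios that did not overlap between groups. A full separation of 3 against 3 libraries has a two-sided exact permutation p of 0.1. This 0.1 is not the share to expect among the pairs, which share genes and libraries and hold genes selected for a group difference. The share over pairs of all listed genes was not computed. Whether these counts are high was therefore not tested.

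The other 4 ratios overlapped between the groups. Copg1 was 2.61% ± 0.17 of Cope in JHT and 2.66% ± 0.50 in WT libraries (SD, n = 3 each), so the means of this ratio between COPI subunits differed by less than the spread between libraries. Sec23b was 5.50% ± 0.98 of Sec13 in JHT and 4.81% ± 4.58 in WT libraries, where WT-1 stood high. Ap1s1 was 35.6% ± 26.0 of Ap1m1 in JHT and 39.5% ± 16.9 in WT libraries. Arfgap2 was 3.81% ± 2.30 of Arf1 in JHT and 1.51% ± 0.79 in WT libraries.

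**Figure D3:**
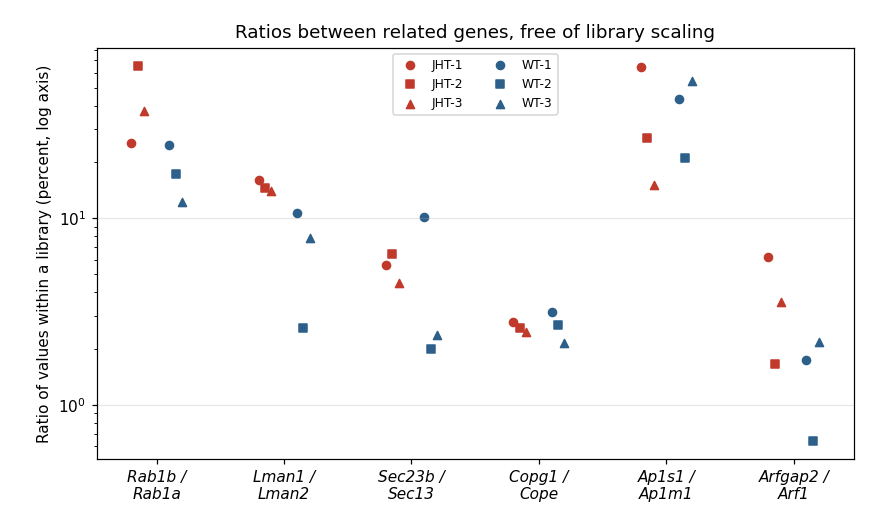
Ratio of the values of 2 related genes within each library, in percent on a log axis, for 6 pairs; JHT libraries (red) stand left of WT libraries (blue) in each pair and marker shapes give the library number. The groups separate for Rab1b over Rab1a and Lman1 over Lman2 and overlap in the other 4 pairs.

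The libraries of a group differed in their level over the 23 genes. The summed value of the traffic genes was 1549, 1880 and 2347 in JHT libraries, against 472, 888 and 867 in WT libraries. WT-1 held the lowest WT value in 15 of the 23 genes, WT-2 in 6 and WT-3 in 2. The median log2 ratio of WT-1 to the mean of the other WT libraries was -0.61 over the traffic genes and -0.67 over all listed genes, so WT-1 was low across the table. JHT-3 held the highest JHT value in 13 of the 23 genes, JHT-1 in 5 and JHT-2 in 5. Against the mean of the other JHT libraries, JHT-3 had a median log2 ratio of 0.33 over the traffic genes. Over all listed genes this ratio was 0.35, so JHT-3 was high across the table. Without WT-1 all 23 genes were still higher in JHT and past the test, as were 94.8% of the listed genes tested. The number with a log2 change above 1 was then 16 of the 23, and 76.6% of all listed genes, and the median change was 1.28 for the traffic genes and for all listed genes.

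**Figure D4:**
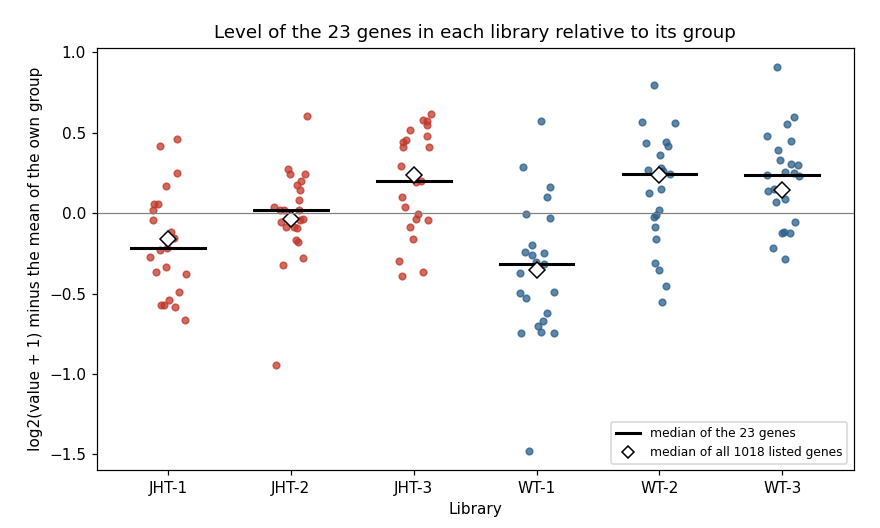
Level of each of the 23 traffic genes in each library, as log2(value + 1) minus the mean of its own group; each point is a gene, the thick bar is the median of the 23 genes and the diamond the median of all 1018 listed genes. WT-1 lies lowest and JHT-1 is the lowest JHT library, and bar and diamond lie on the same side of 0 in all libraries but JHT-2, where the bar is at 0.020 and the diamond at -0.038.

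The direction of the change depended on the scale set for each library. When the 6 libraries were brought to a common median over the listed genes, which takes away a log2 shift of 1.42, 11 of the traffic genes were higher in JHT and 12 were lower, with a median change of -0.019. None of the 23 passed the test then (2 had an unadjusted p under 0.05, limma), and 2.06% of all listed genes were called higher. After quantile normalization over the listed genes 14 were higher and 9 lower, with a median of 0.086, and 0 of the 23 passed (2 had an unadjusted p under 0.05, limma), while 2.55% of all listed genes were called higher. Both scalings lower the JHT values by their construction, since nearly all listed genes were higher in JHT, and which scale fits total RNA was not measured. Under both, Exoc7, Trappc3, Rab1b, Lman1 and Arfgap2 had the highest changes of the 23, at 1.26, 0.75, 0.76, 0.79 and 0.83 with the common median and at 0.50, 0.82, 0.72, 0.55 and 0.35 after quantile normalization. The COPI genes Cope and Copg1, the lectin Lman2 and Rab1a were at the low end, from -0.41 to -0.31 with the common median.

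**Figure D5:**
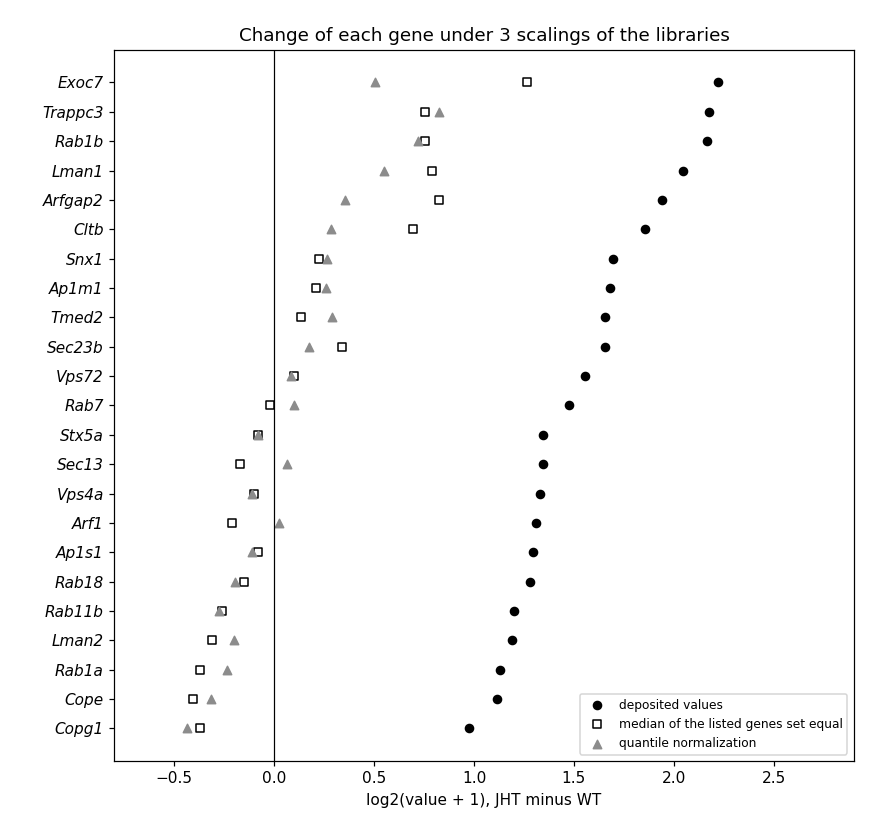
Change of each of the 23 traffic genes (JHT minus WT, log2(value + 1)) from the deposited values (black circles), with all libraries brought to a common median (open squares) and after quantile normalization over the listed genes (grey triangles). Circles lie between 0.97 and 2.22, while squares and triangles spread to both sides of 0 and keep Exoc7, Trappc3, Rab1b and Lman1 at the high end.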

How the data were processed

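Bulk RNA sequencing was available for 3 JHT and 3 WT libraries of M45 tetramer+ CD8+ T cells, made with the SMART-Seq v4 and Nextera XT kits, which do not keep the strand. The authors trimmed adaptors and mapped reads to GRCm38 with CLC Genomics Workbench at default settings. The gene annotation, and whether values are RPKM or TPM, are not given in the sources used here. Per the file headers, the deposited table holds 1 expression signal per gene and library for 1018 genes selected for a difference, and its headers call the JHT libraries KO. The other 6 columns are the authors' own comparison, deposited as a difference, a fold change, a p-value, an FDR-corrected p-value, a log2 fold change and a −log10 p-value, and none was used.

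The test was limma 3.58.1 (R 4.3.3) on log2(value + 1), with trended moderated variance, on genes with a value of at least 1 in at least 3 libraries (all 1018), with Benjamini-Hochberg adjustment at 0.05. The code was tested on simulated data. The study states only an approximate read number common to all libraries, and the total of each library is not given. Since values are whole multiples of what 1 read is worth for each gene length, read numbers could be recovered to a common factor (1018 of 1018 genes, tolerance 0.001), and the 23 genes had 25 to 23488 reads per library. Reads per unit of value, relative to WT-1, were 1.11, 1.43 and 1.10 in JHT libraries, against 1.0, 1.15 and 1.21 in WT libraries. The listed genes held 4040416, 5742545 and 4894010 reads in JHT libraries, against 1909193, 2655404 and 2888084 in WT libraries. Coordinates are 1-based on GRCm38 (GENCODE M21), promoters are from RefSeq (GRCm38.p6). Python 3.11.15, numpy 2.4.6 and pandas 2.3.3 were used.

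Values in every library are given for the 6 genes with the largest and the 4 with the smallest log2 change, the 6 with the highest mean, and the 2 of highest mean in each role list. Outside the symbol rule, the 2 of highest mean in a list are given. Stxbp2, Yipf2, Yipf3 and the promoter windows were chosen after values were seen. The genes and lists were chosen with earlier results of these data known. The alternatives were another pseudocount, no filter, 2 scalings, the replicate number as a block and leaving out each library. Voom weights on the recovered reads were added after seeing the data.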

Additional observations from a re-analysis of the deposited data

How the results depend on the processing

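With 0.1 added in place of 1, without the filter and with a replicate block, all 23 genes stayed higher in JHT and past the test. In each setting 96.6% of all listed genes did so. The count with a log2 change above 1 was 23, 22 and 22 (96.3%, 92.2% and 92.2% of all listed genes). These settings could not turn a direction, since the groups overlap in no listed gene. All 1018 genes pass the filter, so leaving it out repeats the main fit. The block leaves every log2 change as it was and can alter only the p-values. Leaving out each library in turn gave 21 to 23 genes past the test, 16 to 23 of them with a log2 change above 1 (16 without WT-1), and a median change of 1.28 to 1.59. Over the listed genes tested, the same settings gave 91.6% to 96.0% higher in JHT and past the test. They gave 76.6% to 92.6% with a log2 change above 1 as well, and a median of 1.28 to 1.57. Exoc7 could not be tested without a JHT library, since its WT values fell under the filter, and Copg1 did not pass without JHT-3 (log2 change 0.87, adjusted p = 0.056).

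Both rescalings ended every call, with 0 genes past the test and 0 with a log2 change above 1 as well. With the common median the median change was -0.019, and the genes that turned were Cope (-0.41), Copg1 (-0.37), Rab1a (-0.37), Lman2 (-0.31), Rab11b (-0.26), Arf1 (-0.21), Sec13 (-0.17), Rab18 (-0.15), Vps4a (-0.10), Stx5a (-0.082), Ap1s1 (-0.080) and Rab7 (-0.019). With quantile normalization the median change was 0.086, and Copg1 (-0.44), Cope (-0.32), Rab11b (-0.28), Rab1a (-0.24), Lman2 (-0.20), Rab18 (-0.20), Ap1s1 (-0.11), Vps4a (-0.11) and Stx5a (-0.082) turned. Both take away the shift shared by nearly all listed genes, which follows from their construction.

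The replicate number was not taken to pair the libraries, because the labels give it no shared litter or day. Whether the numbers mark a pairing was not tested. Deviations of same-numbered libraries correlated at 0.17, 0.03 and 0.11 over the listed genes, and 5 of 6 libraries correlated best with their own number. The fit with the replicate block gave 23 genes past the test, as in the main fit. Its median change of 1.47 is unchanged by construction, since each number stands for 1 library of each group. Adjusted p-values were lower with the block for all traffic genes but Exoc7 (2.05e-06, against 1.72e-06 without it, limma). For Trappc3 the adjusted p was 9.04e-09 with the block and 6.16e-07 without it (limma). The planned edgeR test on recovered reads was not run. Limma with voom weights on those reads, chosen after seeing the data, gave 23 genes higher in JHT and past the test (96.2% of all listed genes). All 23 had a log2 change above 1 as well (96.1% of all listed genes). The median change was 1.51, against 1.57 for all listed genes. Every traffic gene had at least 25 recovered reads in each library, the fewest being those of Exoc7 in WT-3.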
